A study of Mus musculus with 6 samples.

Results

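Many of the FOS, JUN and EGR genes are immediate early genes, which cells transcribe within minutes of a stimulus without first making new protein. FOS proteins (*Fos*, *Fosb*, *Fosl1*, *Fosl2*) pair with JUN proteins (*Jun*, *Junb*, *Jund*) to form AP-1, a leucine zipper dimer that binds DNA, whereas EGR1, EGR2 and EGR3 are zinc finger factors that bind GC-rich sites on their own. Many of these genes are switched on through MAPK signaling by serum response factor and its ELK partners or by CREB, and in embryonic tissue they are also known to respond to dissection, growth factors and mechanical load. The 10 genes were taken by symbol from the table of deposited counts, in which they are 10 of 56748 gene identifiers.

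Ureters of wildtype NMRI mouse embryos were explanted at E12.5 and cultured on transwell membranes for 18 h, either with 15 mM LiCl (3 samples) or with water as control (3 samples). LiCl is a salt whose lithium ion inhibits GSK3 kinases and thereby stabilizes CTNNB1, the mediator of canonical WNT signaling, and the comparison asks how the undifferentiated ureter responds to WNT pathway activation. Poly-A RNA of the whole explant, with the ureteric epithelium (UE), the ureteric mesenchyme (UM) and other cells, was sequenced at this single time. The sample labels list no serum in the medium, whereas the general culture methods of the study name fetal calf serum and exempt only cultures for microarrays and RT-qPCR, so whether these explants had serum is not settled by the sources used here. The controls received no other salt, so effects of lithium on GSK3 and any other effect of the added salt cannot be told apart, nor can, in bulk RNA, fewer cells of a type and less RNA per cell.

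The 6 libraries held between 28473436 and 31266945 counts, and 18188 genes passed the filter on low counts and were tested with edgeR's quasi-likelihood test with Benjamini-Hochberg adjustment. *Axin2*, a direct target of CTNNB1, had 71.8 ± 2.68 CPM (counts scaled for library size, SD, n = 3) in the control and 136 ± 2.03 CPM (n = 3) in LiCl (log2 fold change 0.92, adjusted p = 1.4e-06). Summed levels of UE and UM markers did not overlap between the groups, whereas those of macrophage, endothelial, erythroid and skeletal muscle markers did. Of all tested genes, 21.1% were higher and 22.4% lower at an adjusted p under 0.05. The summed level of 10 UE markers was 1325 to 1646 CPM in the control and 1005 to 1050 CPM in LiCl, and at an adjusted p under 0.05, 8 of the 10 were lower and 1, *Epcam*, was higher (log2 fold change 0.37, adjusted p = 0.00067). For 10 UM markers the sums were 6357 to 7038 and 4545 to 5073 CPM, with 7 of the 10 lower and 2 higher, and for 10 macrophage markers 111 to 170 and 90.2 to 123 CPM, with 6 of the 10 lower. For 8 endothelial markers the sums were 540.5 to 683 and 497 to 612 CPM, with 1 of the 8 lower, and for 9 erythroid markers 483 to 702 and 636 to 977 CPM, with 3 of the 8 tested higher. The 12 skeletal muscle markers summed to 9.39 to 13.0 CPM in the control and to 44.3, 10.7 and 92.8 CPM in LiCl replicates 1, 2 and 3, so replicates 1 and 3 stood apart, and 6 of the 8 tested were higher at an adjusted p under 0.05. No marker of these lists was at 0 in all samples. The part of cell composition in the values of the FOS, JUN and EGR genes was not tested.

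The DNA just upstream of some of these genes holds letters of the kinds of sites through which such genes are known to be regulated. RefSeq windows of 250 bases before the annotated start (GRCm38.p6, an older build than the GRCm39 of the counts) were at hand for 7 of the 10 genes. They were searched on both strands for the core of the cyclic AMP response element (TGACG), the variant of *Jun* to which AP-1 binds (TGACATCA), EGR sites (GCGTGGGCG or GCGGGGGCG) and the CArG box of serum response factor, and in the direction of the gene for TATAAA. Of all 32851 windows, 17.8% held the TGACG core, 2.93% TGACATCA, 3.06% an EGR site, 1.47% a CArG box and 7.59% TATAAA. The 120 bases before the start are shown for the FOS and JUN genes with a match there, followed by 2 stretches of 30 bases around the CArG boxes of *Egr2*. Capitals mark the matches that lie wholly within a stretch, and the second stretch of *Egr2* ends within a TGACG match on the other strand, which is left in lower case. Each sequence runs 5′ to 3′ on the strand of the gene.

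Fos, chr12:85473770-85473889, plus strand: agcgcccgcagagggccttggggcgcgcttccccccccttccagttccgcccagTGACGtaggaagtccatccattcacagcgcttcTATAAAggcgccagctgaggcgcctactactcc
Fosb, chr7:19310046-19310165, minus strand: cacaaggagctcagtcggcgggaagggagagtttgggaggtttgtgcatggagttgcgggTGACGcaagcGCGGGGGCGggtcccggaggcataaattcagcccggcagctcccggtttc
Fosl2, chr5:32136352-32136471, plus strand: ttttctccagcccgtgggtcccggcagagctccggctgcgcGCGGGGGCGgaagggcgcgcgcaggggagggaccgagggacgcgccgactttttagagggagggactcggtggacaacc
Jun, chr4:95052223-95052342, minus strand: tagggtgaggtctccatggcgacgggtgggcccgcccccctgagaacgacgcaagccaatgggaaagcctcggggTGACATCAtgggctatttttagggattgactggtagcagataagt
Junb, chr8:84978749-84978868, minus strand: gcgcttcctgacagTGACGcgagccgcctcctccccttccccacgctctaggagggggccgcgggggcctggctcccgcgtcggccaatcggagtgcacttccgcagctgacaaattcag
Egr2, chr10:67537484-67537513, plus strand: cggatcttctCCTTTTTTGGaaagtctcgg
Egr2, chr10:67537787-67537816, plus strand: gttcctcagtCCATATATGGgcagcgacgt

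The TGACG core occurred in *Fos* 66 to 62 and again 129 to 125 bases before the start, in *Fosb* 60 to 56 and in *Junb* 106 to 102 bases before it. *Egr2*, which has 5 annotated starts, held 2 such cores before each of 3 of them, for example 111 to 107 and 55 to 51 bases before the start to which the second stretch belongs. *Fosb* and *Fosl2* each held an EGR site, 50 to 42 and 79 to 71 bases before the start, and *Jun* held TGACATCA 45 to 38 bases before it. The CArG boxes of *Egr2* belonged to different annotated starts of this gene. None of these letters occurred in the window of *Jund*. The search also covered sites of TCF and LEF factors, which bind CTNNB1, the full cyclic AMP response element and the consensus AP-1 site. Of all windows, 14.8%, 1.55% and 4.46% held these sites. No window of the 7 genes held a match to any of them. Windows of *Fosl1*, *Egr1* and *Egr3* were not analysed here. A match describes the letters and does not show that a factor was bound in these explants.

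The 10 genes did not move together after LiCl. *Fos*, *Fosb*, *Jun* and *Jund* rose by 1.32- to 1.68-fold, whereas *Fosl2*, *Egr1*, *Egr2* and *Egr3* fell by 1.52- to 2.24-fold, and *Junb* did not pass the test. *Fosl1* had too few counts to be tested. Thus, 4 of the 9 tested genes were higher and 4 lower at an adjusted p under 0.05, where 21.1% of all tested genes were higher and 22.4% lower. Within this split, the EGR genes all fell, but the call of *Egr2*, like that of *Fosb*, held in only 7 of 14 alternatives. With an additional fold threshold (log2 fold change above 1 or below -1), 1 gene, *Egr1*, was lower, against 4.59% of all tested genes. No member was past the threshold in the other direction, which 2.74% of all tested genes were. The highest log2 fold change among the members was 0.75 with edgeR and 0.76 with DESeq2. The median log2 fold change of the 9 genes was -0.36, and that of all tested genes was -0.01. LiCl replicates 1 and 3 had the highest sums of skeletal muscle markers, 44.3 and 92.8 CPM. Without these libraries, which left 1 LiCl sample, the log2 fold change was 0.70 for *Fos* and -1.28 for *Egr1*. No tested member changed its sign in that fit. The p-values measure the spread between these samples, since no source used here says how many ureters or litters each held.

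**Figure D1:**
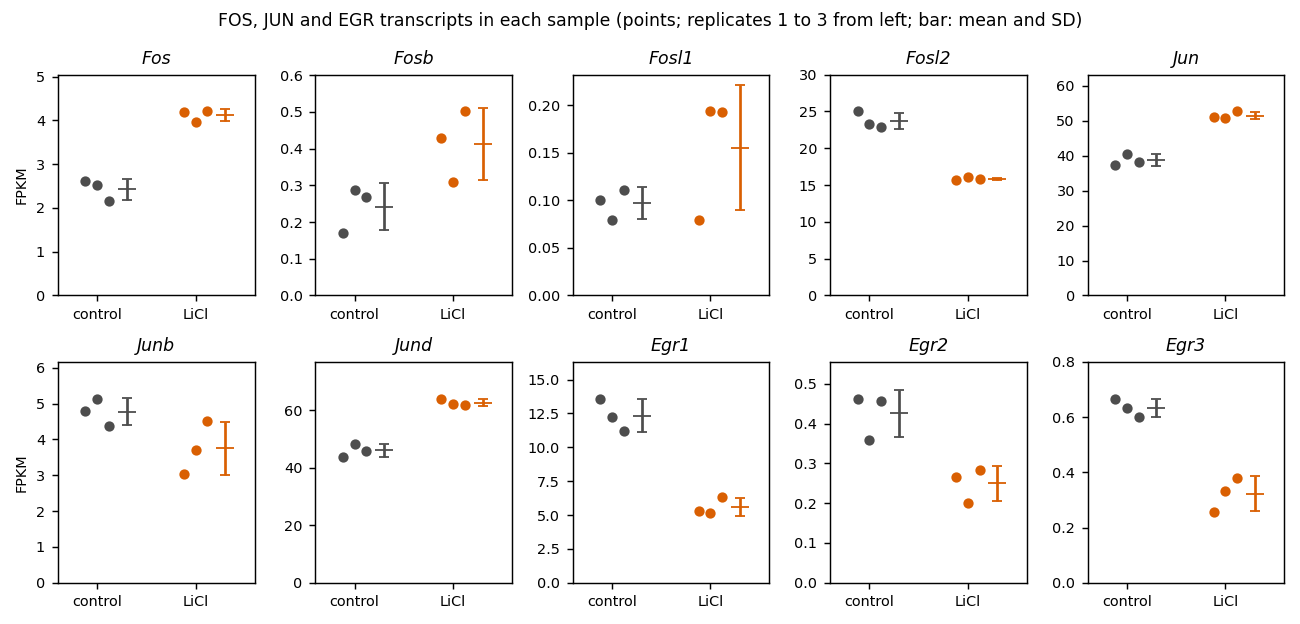
FPKM (y axes, from 0, scaled per gene) of the 10 genes in control and LiCl samples; points are replicates 1 to 3 from left to right, and the bar gives the mean and SD (n = 3). LiCl samples lie apart from control samples in 8 of 10 genes and overlap with them in *Fosl1* and *Junb*. In CPM, the groups also lay apart in 55 of the 105 genes of the 7 other lists described below. The share over all genes was not computed.

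**Figure D2:**
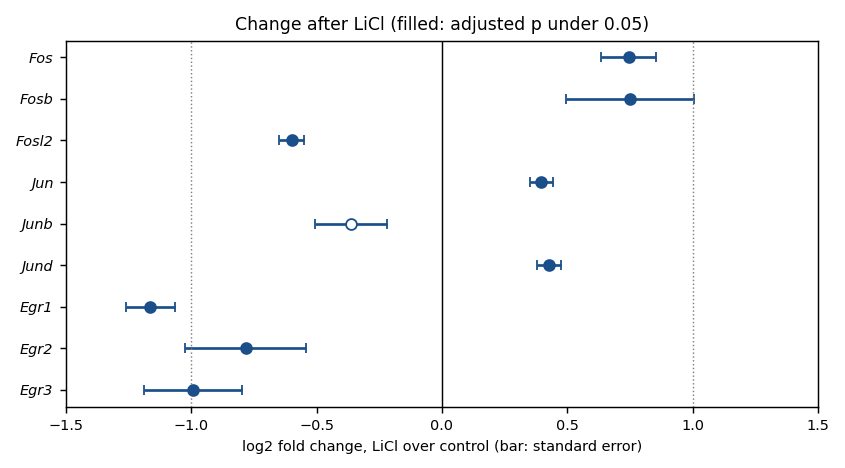
Log2 fold change of LiCl over control (x axis) with its standard error for the 9 tested genes; filled points have an adjusted p under 0.05, and dotted lines mark -1 and 1. *Egr1* at -1.16 lies left of the dotted line and *Junb* at -0.36 is open.

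*Fos*, the founding member of its family and the textbook immediate early gene, had 6.26, 5.96 and 5.12 CPM in control replicates 1 to 3 and 9.88, 9.31 and 9.86 CPM in LiCl replicates 1 to 3. The groups did not overlap, and the LiCl samples lay close together. *Fos* rose by 1.68-fold (log2 fold change 0.74, SE 0.11, adjusted p = 0.000668). *Fosb*, a relative whose product pairs with JUN proteins in the same way, had only 31, 56 and 52 counts in the control and 83, 54 and 88 counts in LiCl. In CPM the lowest LiCl sample (1.93) lay just above the highest control (1.80), so the groups did not overlap but nearly touched. *Fosb* passed the test with a log2 fold change of 0.75 (SE 0.26, adjusted p = 0.0398). This call was lost in 7 of 14 alternatives: without control replicate 1 or 3 or LiCl replicate 1 or 3, the adjusted p was 0.111, 0.069, 0.0879 and 0.139, and without LiCl replicates 1 and 3 together it was 0.537 at a log2 fold change of 0.34.

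*Fosl1* encodes FRA1, which lacks the transactivation domain of FOS and is known as a target of AP-1 itself. It had 6, 5 and 7 counts in the control and 5, 11 and 11 counts in LiCl, which overlapped. A fit without the filter on low counts gave a log2 fold change of 0.66 (SE 0.56, adjusted p = 0.453), so a change was not detectable at this depth. *Fosl2* encodes FRA2, the other FOS protein without that domain, and went the opposite way to *Fos*. It had 246, 226 and 224 CPM in the control and 151, 155 and 153 CPM in LiCl, with every LiCl sample far below every control. *Fosl2* fell by 1.52-fold (log2 fold change -0.60, SE 0.05, adjusted p = 2.46e-05).

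The opposite changes of *Fos* and *Fosl2* shifted the make-up of the FOS transcripts. To compare genes, levels per transcript length (FPKM) were used. The summed FPKM of the 4 FOS genes was 27.9, 26.1 and 25.4 in the control and 20.4, 20.5 and 20.7 in LiCl. *Fosl2* supplied the bulk in all samples, but its share was 88.9% to 90.0% in the control and 76.3% to 78.2% in LiCl. The share of *Fos* was 8.49% to 9.65% in the control and 19.3% to 20.6% in LiCl. Accordingly, the FPKM of *Fosl2* was 9.21 to 10.6 times that of *Fos* in the control and 3.72 to 4.05 times in LiCl. The ranges of the groups did not overlap in any of these measures, and these shares and ratios were not tested.

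*Jun*, whose product forms the strongly activating AP-1 dimers and binds its own promoter at the TGACATCA variant printed above, had 121, 130.2 and 123 CPM in the control and 162, 162 and 167 CPM in LiCl. All LiCl samples were above all controls, and *Jun* rose by 1.32-fold (log2 fold change 0.40, SE 0.05, adjusted p = 0.000183). *Jund*, which is known to be expressed constitutively and to respond little to stimuli, had 74.5, 81.0 and 77.1 CPM in the control and 107, 104 and 103 CPM in LiCl. The groups were as clearly apart as for *Jun*. *Jund* rose by 1.34-fold (log2 fold change 0.43, SE 0.05, adjusted p = 0.000156).

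*Junb*, whose product can restrain JUN on many targets, had 11.2, 11.9 and 10.2 CPM in the control and 6.98, 8.56 and 10.4 CPM in LiCl. LiCl replicate 3 lay within the control range, and the other two LiCl samples below it. The log2 fold change was -0.36 (SE 0.14, adjusted p = 0.0659) and did not pass the test. DESeq2 gave an adjusted p of 0.0558. Without LiCl replicate 3 the log2 fold change was -0.51 with an adjusted p of 0.0203. Without LiCl replicate 1 it was -0.23 with an adjusted p of 0.181. *Junb* passed in 3 of 16 alternatives. The value of *Junb* is uncertain for another reason. An exon of *Prdx2*, a peroxiredoxin gene on the opposite strand with 7689 to 10995 counts per sample, overlaps it in the GENCODE vM21 annotation, and the strand setting of the counting is not given in the sources used here. *Prdx2* itself fell (log2 fold change -0.25, SE 0.05, adjusted p = 0.00422), and its part in the value of *Junb* was not tested. *Jun* overlaps the antisense gene *Junos* in the same way, which had 34 to 71 counts per sample. *Fosl1* overlaps *Ccdc85b* on the opposite strand, which had 819 to 1097 counts per sample, so the few counts of *Fosl1* are uncertain too.

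The JUN transcripts summed to 85.9, 94.1 and 88.3 FPKM in the control and to 118, 117 and 119 FPKM in LiCl. *Jun* kept 43.2% to 43.4% of this sum in the control and 43.2% to 44.3% in LiCl. The FPKM of *Jund* was 1.18 to 1.20 times that of *Jun* in the control and 1.17 to 1.26 times in LiCl, which overlapped. The share of *Junb* was 4.96% to 5.56% in the control and 2.57% to 3.80% in LiCl. The FPKM of *Jun* was 7.80 to 8.70 times that of *Junb* in the control and 11.7 to 16.8 times in LiCl, with the uncertainty of *Junb* given above.

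**Figure D3:**
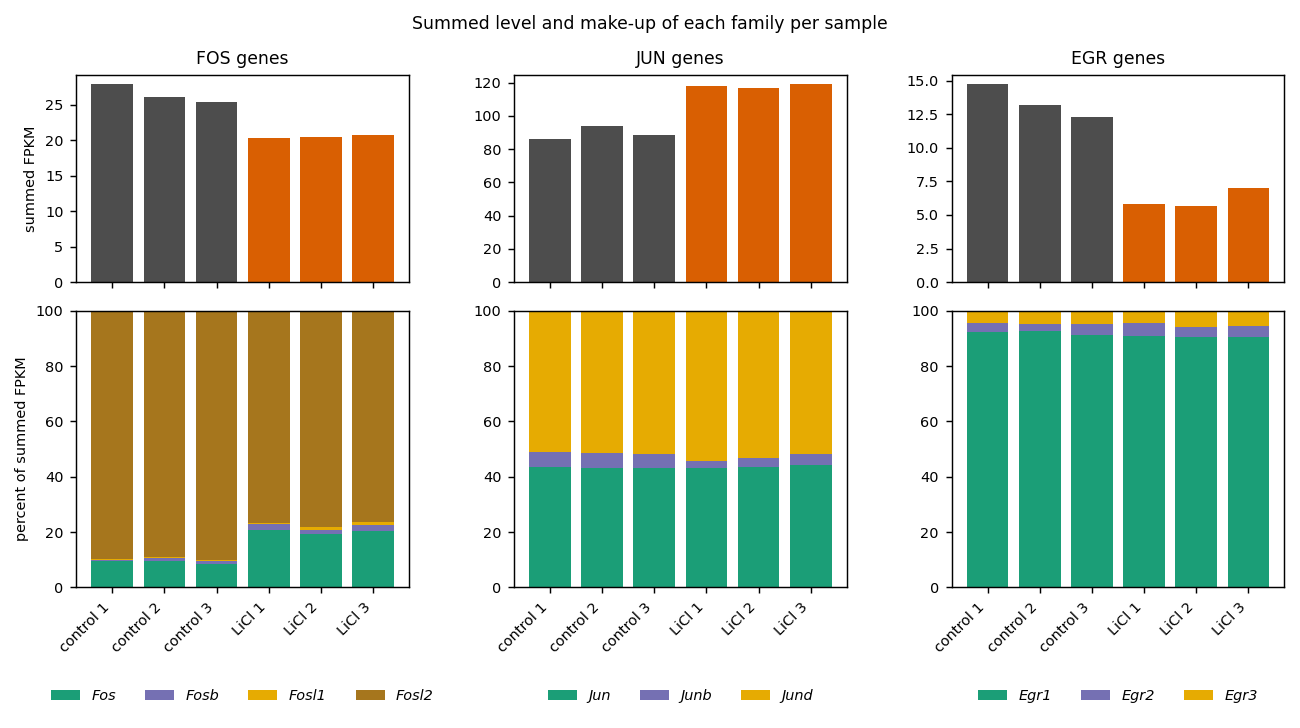
Summed FPKM of the FOS, JUN and EGR genes per sample (upper bars, from 0) and the percent of that sum from each gene (lower stacked bars). The FOS sum is lower, the JUN sum higher and the EGR sum lower in all 3 LiCl samples, and *Fos* takes up to 20.6% of the FOS sum there.

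*Egr1* is the most abundant EGR gene of the explants and a common readout of ERK activity. It had 62.1, 55.1 and 50.8 CPM in the control and 23.6, 23.0 and 28.4 CPM in LiCl, with no overlap between the groups. *Egr1* fell by 2.24-fold (log2 fold change -1.16, SE 0.10, adjusted p = 2.5e-05), the largest change among the 9 tested members. *Egr3*, whose product is known to bind the same kind of site as EGR1, had 86, 87 and 82 counts in the control and 35, 41 and 47 counts in LiCl. Again no LiCl sample reached the controls, and *Egr3* fell by 1.99-fold (log2 fold change -0.99, SE 0.20, adjusted p = 0.00315). It was just inside a log2 fold change of -1, and leaving out control replicate 3, LiCl replicate 2 or LiCl replicate 3 gave -1.02, -1.02 and -1.12, which brings the members past both thresholds to 2.

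*Egr2*, known for its role in hindbrain segments and Schwann cells, had 46, 38 and 48 counts in the control and 28, 19 and 27 counts in LiCl. The groups did not overlap, and *Egr2* fell by 1.72-fold (log2 fold change -0.78, SE 0.24, adjusted p = 0.0263). The call was lost in 7 of 14 alternatives. Without control replicate 1 or 3 or LiCl replicate 1 or 2, the adjusted p was 0.0768, 0.0867, 0.0535 and 0.0865, and with DESeq2 it was 0.07. The log2 fold change was below 0 in all of these alternatives. The 8 markers of neural crest and neurons summed to 259.9 to 295 CPM in the control and 212 to 266 CPM in LiCl. At an adjusted p under 0.05, 2 of the 8 were lower (22.4% of all tested genes were lower). The part of these markers' cells in the values of *Egr2* was not tested.

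The EGR transcripts summed to 14.7, 13.2 and 12.3 FPKM in the control and to 5.78, 5.65 and 7.02 FPKM in LiCl. The make-up moved by little, with 91.4% to 92.5% of the sum from *Egr1* in the control and 90.6% to 91.0% in LiCl. The FPKM of *Fos* was 0.192 to 0.206 times that of *Egr1* in the control and 0.662 to 0.798 times in LiCl. Both are immediate early genes, and their levels moved in opposite directions in all LiCl samples.

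Ordered by FPKM, the control had *Jund* (46.0), *Jun* (38.7), *Fosl2* (23.7), *Egr1* (12.3), *Junb* (4.77), *Fos* (2.43), *Egr3* (0.634), *Egr2* (0.426), *Fosb* (0.242) and *Fosl1* (0.097). Each gene's lowest control sample lay above the highest control sample of the next gene. In LiCl the order of the 4 leading genes was kept, at 62.6, 51.5, 15.8 and 5.58 FPKM. *Fos* (4.12) moved above *Junb* (3.76), and *Fosb* (0.413) above *Egr3* (0.323) and *Egr2* (0.249), with *Fosl1* (0.155) last. The LiCl samples of *Fos* and *Junb*, of *Fosb* and *Egr3* and of *Egr3* and *Egr2* overlapped, so these neighbours did not differ beyond their spread.

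Of the genes whose products pair with FOS or JUN, *Maf*, *Maff* and *Atf3* passed the test. Of 11 tested partner genes of the ATF, BATF, JDP and MAF families, 1 rose and 2 fell, and 8 did not pass the test, with a median log2 fold change of -0.02 (21.1% of all tested genes were higher and 22.4% lower). *Atf3*, a stress-induced partner of JUN, had 7.76, 8.08 and 8.78 CPM in the control and 11.3, 9.63 and 13.2 CPM in LiCl, and rose (log2 fold change 0.47, SE 0.13, adjusted p = 0.0146). This call was lost without LiCl replicate 3, and 2 partner genes were higher without control replicate 1 or LiCl replicate 2. *Maf*, the large MAF protein with a transactivation domain, had 96.8, 92.4 and 102 CPM in the control and 52.2, 53.1 and 53.0 CPM in LiCl, with a wide gap between the groups. *Maf* (log2 fold change -0.88, adjusted p = 2.67e-06) and *Maff*, a small MAF protein (-0.62, adjusted p = 0.00734), fell. Of the co-repressors that bind EGR proteins, *Nab2*, itself a known EGR target, fell slightly from 32.8 ± 0.415 to 27.8 ± 1.94 CPM (n = 3 each, log2 fold change -0.24, adjusted p = 0.0149), a call lost without LiCl replicate 3. *Nab1* had a log2 fold change of -0.10 and did not pass the test.

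Most regulators upstream of the members did not pass the test, and neither did most of all tested genes (21.1% were higher and 22.4% lower). Of 20 genes for serum response factor, its cofactors, CREB, MAP kinases and GSK3, 3 rose, 2 fell and 15 did not pass, and the median log2 fold change was -0.01. Among those that rose were *Srf*, for serum response factor (0.24, adjusted p = 0.00315), and *Mapk14*, for p38 alpha (0.18, adjusted p = 0.0119), both as log2 fold changes. *Mapk10*, for the neural JNK isoform JNK3 (-0.81, adjusted p = 0.0183), and *Mapk3*, for ERK1 (-0.19, adjusted p = 0.022), fell. In this list the count of lower genes was 1 without control replicate 2 or 3 or LiCl replicate 1 or 2, and neither call was left without LiCl replicate 3. *Gsk3b*, the kinase that lithium inhibits, had a log2 fold change of 0.00 (SE 0.06). RNA levels carry no information on the activity of these kinases.

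Feedback genes that MAPK signaling induces and that dampen it also went both ways. Of 15 tested, 2 rose and 3 fell (all tested genes: 21.1% higher, 22.4% lower), with a median log2 fold change of -0.01. *Dusp10*, a phosphatase of JNK and p38, had 359, 239 and 288 counts in the control and 85, 96 and 77 counts in LiCl. Every LiCl sample was far below every control, and *Dusp10* fell by 3.32-fold (log2 fold change -1.73, SE 0.19, adjusted p = 0.000139). *Spry4*, an inhibitor of receptor tyrosine kinase signaling (-0.65, adjusted p = 0.00665), and *Dusp8*, another JNK and p38 phosphatase (-0.40, adjusted p = 0.00915), also fell. *Dusp2*, a nuclear phosphatase (0.32, adjusted p = 0.0263), and *Spred3*, of a family of RAS pathway inhibitors (0.31, adjusted p = 0.00649), rose. The count of higher genes was 1 without control replicate 1 or LiCl replicate 1 or 3. *Dusp6*, the ERK phosphatase often read as an ERK target, had a log2 fold change of -0.19 (adjusted p = 0.148), and *Dusp1* of 0.19 (adjusted p = 0.0641). These 2 genes were named after their values were seen.

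The other immediate early genes also went both ways. Of 29 tested, 9 rose, 11 fell and 9 did not pass the test (all tested genes: 21.1% higher, 22.4% lower), with a median log2 fold change of -0.10. *Nr4a3*, a nuclear orphan receptor, had 2.26, 2.35 and 1.50 CPM in the control and 8.37, 8.20 and 8.30 CPM in LiCl. The LiCl samples were nearly alike and far above the controls, a rise by 4.06-fold (log2 fold change 2.02, SE 0.17, adjusted p = 2.26e-05). *Klf2* (1.23, adjusted p = 9.7e-05), *Klf4* (0.65, adjusted p = 0.00484) and *Klf10* (0.54, adjusted p = 0.000177), all for KLF zinc finger factors, rose as well. *Ccn2*, a matricellular protein gene known as a target of YAP and TGFB signaling, had 23.4, 26.0 and 22.4 CPM in the control and 5.44, 8.52 and 8.76 CPM in LiCl. It fell by 3.17-fold (log2 fold change -1.66, SE 0.16, adjusted p = 5e-05), with no overlap between the groups. Its relative *Ccn1* (-0.66, adjusted p = 0.00274), the survival gene *Ier3* (-0.67, adjusted p = 0.00752) and *Gadd45b*, a stress sensor of the JNK and p38 pathways (-0.56, adjusted p = 0.00848), fell too.

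Genes described as targets of AP-1 elsewhere went in both directions. Of 18 listed, 14 were tested, of which 4 rose, 3 fell and 7 did not pass the test (all tested genes: 21.1% higher, 22.4% lower). Their median log2 fold change was -0.12. *Cd44*, a hyaluronan receptor that is also a known WNT target, had 12.7, 12.9 and 14.5 CPM in the control and 88.0, 62.7 and 83.4 CPM in LiCl. It rose by 5.83-fold (log2 fold change 2.54, SE 0.13, adjusted p = 1.18e-06), with all LiCl samples far above the controls. *Mmp9*, a gelatinase gene, rose by 2.46-fold (log2 fold change 1.30, adjusted p = 0.000855). *Gja1*, for connexin 43, rose by 1.37-fold (log2 fold change 0.45, adjusted p = 7.35e-05). Those that fell were *Plau*, for urokinase (-0.98, adjusted p = 0.000416), *Timp1*, an inhibitor of metalloproteinases (-0.43, adjusted p = 0.019), and *Ccnd1*, for cyclin D1 (-0.34, adjusted p = 0.0069).

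Of 8 genes described as EGR targets, 1 rose, 4 fell and 3 did not pass the test, with a median log2 fold change of -0.33. *F3*, for tissue factor, had 29.6, 28.7 and 23.8 CPM in the control and 11.9, 11.9 and 12.9 CPM in LiCl, and fell by 2.23-fold (log2 fold change -1.16, SE 0.09, adjusted p = 2.13e-05). *Tgfb1*, for the growth factor TGFB1, had 17.8, 22.7 and 25.4 CPM in the control and 9.27, 11.0 and 12.4 CPM in LiCl, and fell by 2.02-fold (log2 fold change -1.01, SE 0.14, adjusted p = 0.000526). The groups did not overlap for either gene. *Thbs1*, for thrombospondin 1 (-0.94, adjusted p = 3.87e-06), and *Fn1*, for fibronectin (-0.47, adjusted p = 0.0152), fell, and *Pdgfa*, for a PDGF ligand, rose (0.77, adjusted p = 4.49e-05). With RLE size factors, DESeq2 or no filter, and without LiCl replicate 1, 2 genes of this list were higher. Over all 7 of these other lists, 20 of 99 tested genes were higher and 26 lower at an adjusted p under 0.05, where 21.1% of all tested genes were higher and 22.4% lower. Their median log2 fold change was -0.02. Leaving out LiCl replicates 1 and 3 together left 1 LiCl sample, so the calls of that fit were not set against these counts.

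**Figure D4:**
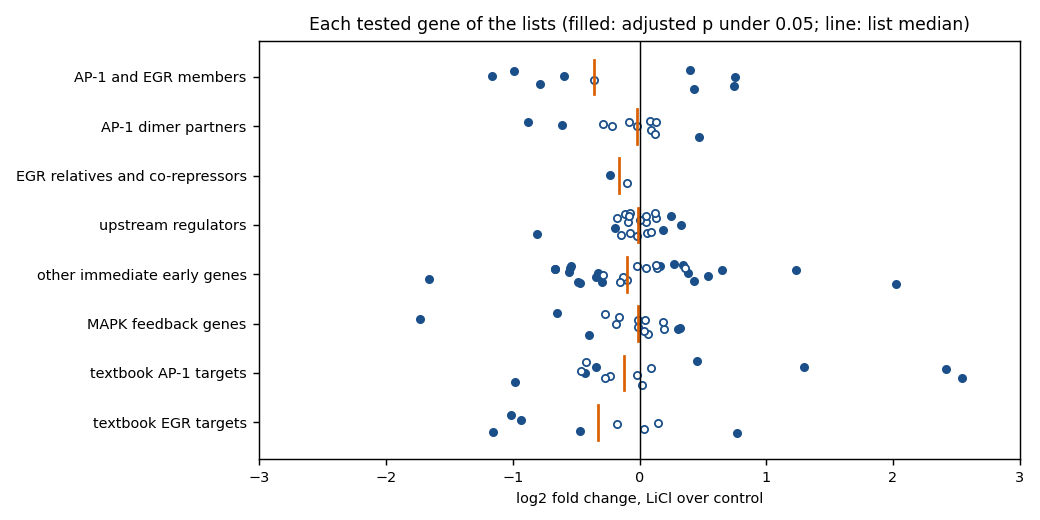
Log2 fold change (x axis) of each tested gene of the members and of the 7 other lists (rows, points spread vertically for clarity); filled points have an adjusted p under 0.05 and the line is the list median. Points lie on both sides of 0 in every list with more than 2 tested genes, and the medians run from -0.36 to -0.01.

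Genes averaging 10 CPM or more were compared with 3 members for likeness of pattern. The 5 whose log2 CPM followed *Fos* most closely over the 6 samples were *Leo1*, *Nras*, *Cdkn1a*, *Ercc5* and *Asrgl1* (Pearson r from 0.996 to 0.999). For *Jun* they were *Mrpl39*, *Pak4*, *Klhl5*, *Cbx1* and *Ube2s*, all at r = 0.998, and for *Egr1* they were *Nsdhl*, *Dnajc21*, *Fdft1*, *Reps2* and *Stat3* (r from 0.997 to 0.998). All 6 samples share the split into the groups, so such values are common: 2152 of 10721 genes had an r above 0.9 with *Fos*, 2332 of 10720 with *Jun* and 1549 of 10720 with *Egr1*. These correlations describe the 6 samples.

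**Figure D5:**
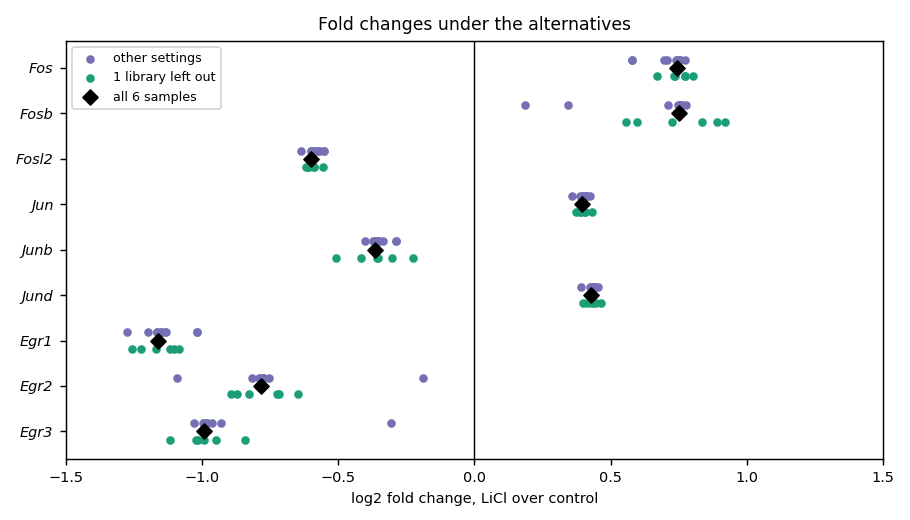
Log2 fold change (x axis) of each tested member with all 6 samples (diamonds), with 1 library left out (green) and under other settings (purple). No point changes its side of 0, and *Fosb*, *Egr2* and *Egr3* show the widest spread, with the values nearest to 0 from log2(FPKM + 1).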

How the data were processed

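RNA-Seq of 3 LiCl and 3 control samples was analysed, with groups and replicate numbers from the sample labels. The authors deposited raw counts per gene, made from stranded poly-A libraries aligned to GRCm39 and counted with featureCounts. The paper names HISAT2 as aligner, whereas the submitters' processing notes list STAR 2.7, with fastp 0.23, featureCounts 2.0 and DESeq2 1.40. The annotation release and the strand setting are not given in the sources used here, so genes that overlap on opposite strands are uncertain. The authors also deposited FPKM values, which matched counts divided by DESeq2 size factors and gene length to a relative spread of 5.43e-08 in 13480 genes. Symbols came from GENCODE vM21 (GRCm38) for 52073 of 56748 identifiers, and the others held 0.19% of the counts.

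The quasi-likelihood test of edgeR 4.0.16 (two-sided, under R 4.3.3) was run on the counts with TMM scaling after filterByExpr, with Benjamini-Hochberg adjustment over 18188 genes. CPM used TMM library sizes. A gene passed at an adjusted p under 0.05, and the added fold threshold follows the methods of the paper. An exact permutation test of 3 against 3 samples cannot give a p below 0.1, so no such test was used. The alternatives changed the scaling (RLE size factors, or library size only), the tool (DESeq2 1.42.0), the filter (none, or a minimum of 10 counts in all samples), the design (a replicate block) or the samples (each replicate left out, and LiCl replicates 1 and 3 left out together). The FPKM were tested with limma 3.58.1 after adding 1 or 0.1 and taking log2, for genes averaging 0.5 FPKM or more, and after adding 1 also for all genes. The steps were tested on simulated data. No 2 libraries agreed within sampling noise (5.81 to 14.5 for chi-square over degrees of freedom within groups).

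The members and lists were chosen with earlier results of these data known. All 10 members were named, and of each other list up to 4 genes in each direction with an adjusted p under 0.05 and the largest changes, together with *Axin2* and the 5 genes most like *Fos*, *Jun* and *Egr1* in pattern. Some genes that this rule takes in are not reported here. *Gsk3b*, *Nab1*, *Dusp1*, *Dusp6*, *Prdx2*, *Junos* and *Ccdc85b* were named outside this rule, after their values were seen. Promoter sequences are from RefSeq, GRCm38.p6.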

Additional observations from a re-analysis of the deposited data

How the results depend on the processing

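Over 16 alternatives, *Fos*, *Fosl2*, *Jun*, *Jund* and *Egr1* passed the test in all 16, and *Egr3* in the 14 that could be fitted. *Fosb* and *Egr2* passed in 7 of 14 each, and *Junb*, not past the threshold, passed in 3 of 16. No log2 fold change of a member changed sign. Of the member values under the alternatives, 121 kept their side of the threshold, 14 lost it and 3 gained it. The number of higher members was 4, or 3 to 4 under the alternatives. Across the alternatives, 10.1% to 23.9% of all tested genes were higher and 9.04% to 24.9% lower. The number of lower members was 4, or 3 to 5 under the other alternatives and 2 with limma on log2(FPKM + 1) and on log2(FPKM + 0.1), for which *Egr2* and *Egr3* were under the FPKM minimum. The number of members past a log2 fold change of -1 was 2 with library size only and 1 to 2 when a replicate was left out, because *Egr3* then crossed -1. In the 7 other lists, 20 genes were higher and 26 lower, and 11 and 14 without LiCl replicates 1 and 3 together, where 4 samples were left. For single lists, 190 counts stayed within 1.5 times and 34 did not.

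The replicate numbers did not pair the samples: correlations of same-numbered deviations were -0.14, -0.34 and 0.19. With the replicate block, 3 members were higher and 4 lower, where 18.6% of all tested genes were higher and 19.8% lower. *Fosb* had an adjusted p of 0.0632 in that fit. Depth limits *Fosl1*, *Fosb*, *Egr2* and *Egr3*, which had under 100 counts in every library.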
